A study of Mus musculus with 12 samples.

Results

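Collagen chains are encoded by a family of genes named Col followed by the type and the number of the alpha chain. Among the loci of the deposited transcript annotation, 44 carried a reference gene of such a name, out of 80012 loci counted. They comprised 11 fibrillar chains, 6 type IV chains, 3 other chains of the basement membrane zone, 6 type VI chains, 3 short chain network chains, 9 fibril-associated chains, 4 membrane-spanning chains and 2 remaining chains. A locus was tested when its mean exceeded 0.1 FPKM (CPM, the counts scaled to library size, divided by the summed exon length in kilobases) in at least 1 group, which 37 of the 44 chains and 17922 loci in all did. The 7 chains that were not tested, Col4a3, Col4a4, Col6a6, Col15a1, Col19a1, Col25a1 and Col28a1, reached at most a group mean of 0.0683 FPKM. The Col20a1 locus had been assembled into 1 unit with Arfgap1, 9230112E08Rik and Gm14341 and the Col7a1 locus with Mir711, so counts of the Col20a1 locus cannot be given to Col20a1.

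Collagens are secreted or membrane-bound proteins whose chains wind into a helix and then assemble outside the cell. Fibrillar chains, such as those of types I, II, III and V, build the fibrils of connective tissue and cartilage and are made in large amounts by fibroblasts. Type IV chains build the meshwork of basement membranes, the sheets on which epithelia rest, and they are among the earliest collagens of the mouse embryo. Other chains decorate fibrils, form beaded filaments (type VI), anchor basement membranes, or stay in the plasma membrane.

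Poly(A) RNA had been profiled in 12 libraries of 1 mouse embryonic stem cell line, an Eomes-EGFP reporter line in which EGFP was inserted at the start of Eomes, a T-box gene of mesendoderm. The 3 groups of 4 libraries were undifferentiated ESCs at day 0, which had been grown on mouse embryonic fibroblast feeders, and the EGFP-negative (Eo-) and EGFP-positive (Eo+) cells sorted at day 3 from embryoid bodies formed in hanging drops. Replicates carry the numbers 1, 2, 5 and 6 in every group, and lists of 4 values follow that order. A single C57BL/6 line was used and the reporter allele was present in all 12 libraries. Whether feeders were removed before RNA was taken is not given in the sources used here.

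Libraries held 648413022 to 837308168 locus counts, of which 0.0454% to 0.0899% fell on collagen loci, and 3 counts corresponded to 0.00354 to 0.00467 CPM (counts scaled to a common library size). Eomes stood at 46.5 ± 8.82 CPM in ESCs, 137 ± 22.2 CPM in Eo- cells and 527 ± 96.9 CPM in Eo+ cells (SD, n = 4), in the order of the sort. In Eo+ cells against ESCs 6 of 6 pluripotency markers were lower (adjusted p up to 0.05 in limma), beside 36.1% of all loci tested. All 7 mesendoderm markers were higher in that comparison, beside 35.8% of all loci tested, and they include Eomes, the gene used for the sort. Replicate 1 of both sorted fractions held the highest levels of several chains, which are given library by library. In these bulk libraries, fewer cells of a type and less RNA per cell cannot be told apart.

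Basement membrane chains held most of the collagen signal on average in every group, but not the same chain. Per length, Col18a1 ranked first in ESCs with 46.4 ± 7.13 FPKM and in Eo- cells with 36.5 ± 4.12 FPKM, and in both groups its libraries did not overlap those of the next chain. In Eo+ cells Col4a1 ranked first with 23.3 ± 7.05 FPKM, above Col4a2 with 10.4 ± 3.88 FPKM, Col18a1 with 9.37 ± 3.33 FPKM, Col13a1 with 6.82 ± 3.44 FPKM and Col23a1 with 4.87 ± 1.92 FPKM, and the ranges of neighbours from Col4a2 on overlapped. In ESCs the second to eighth places went to Col1a1, Col5a1, Col4a1, Col9a2, Col1a2, Col4a2 and Col5a2, at 9.45 to 2.53 FPKM, with overlapping ranges between neighbours. The next chains in Eo- cells were Col4a1 at 7.44 ± 2.57 FPKM, Col4a2 at 3.47 ± 1.69 FPKM and Col2a1 at 3.22 ± 0.213 FPKM. These levels use all exons assembled for a locus. With the exons of transcripts that match the reference alone, an alternative chosen after seeing the data, the first place was unchanged in each group, Col9a3 moved up to rank 3 in Eo- cells at 4.85 ± 0.795 FPKM and to rank 5 in Eo+ cells at 5.66 ± 1.7 FPKM, and Col9a2 passed Col4a1 in ESCs, with ranges that overlapped those of their neighbours. The merged Col20a1 locus also moved up in ESCs and Eo+ cells.

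Summed over all 44 loci, collagen FPKM came to 94.9 ± 14.3 in ESCs, 66.1 ± 8.67 in Eo- cells and 78 ± 17 in Eo+ cells. Type IV chains made up 7.77% ± 1.13 of this sum in ESCs, 17.1% ± 4.12 in Eo- cells and 44.6% ± 4.19 in Eo+ cells. Fibrillar chains made up 26.1% ± 7.9, 10.4% ± 0.737 and 12.2% ± 2.15 in the same order. The other basement membrane zone chains, nearly all Col18a1, went from 50.1% ± 7.12 and 56.2% ± 2.09 to 12.7% ± 2.81, and membrane-spanning chains from 0.97% ± 0.227 and 1.56% ± 0.302 to 15.4% ± 4.62. The composition of Eo+ libraries thus differed from that of both other groups in type IV, Col18a1 and membrane-spanning chains, with no overlap between libraries, while the fibrillar share set ESCs apart from both sorted fractions. With the reference exons the shares were 7.55%, 16% and 42.1% for type IV chains and 24.8%, 9.87% and 11.6% for fibrillar chains.

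**Figure D1:**
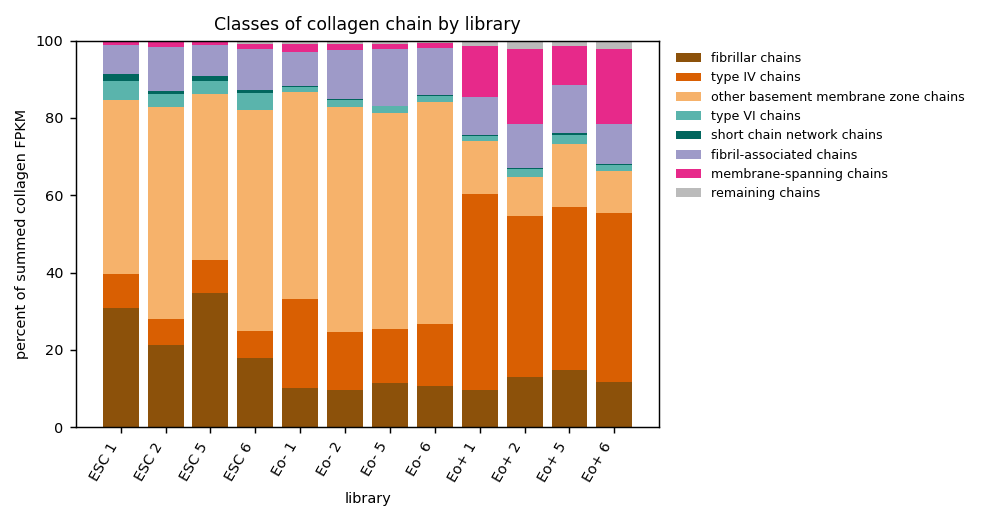
Share of summed collagen FPKM (vertical axis, percent) taken by each of the 8 classes of chain in each of the 12 libraries (1 bar per library). Type IV chains take 41.6% to 50.7% in the Eo+ libraries and 6.63% to 9% in the ESC libraries, and fibrillar chains take 17.8% to 34.7% in the ESC libraries; the merged Col20a1 locus is part of the fibril-associated share.

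**Figure D2:**
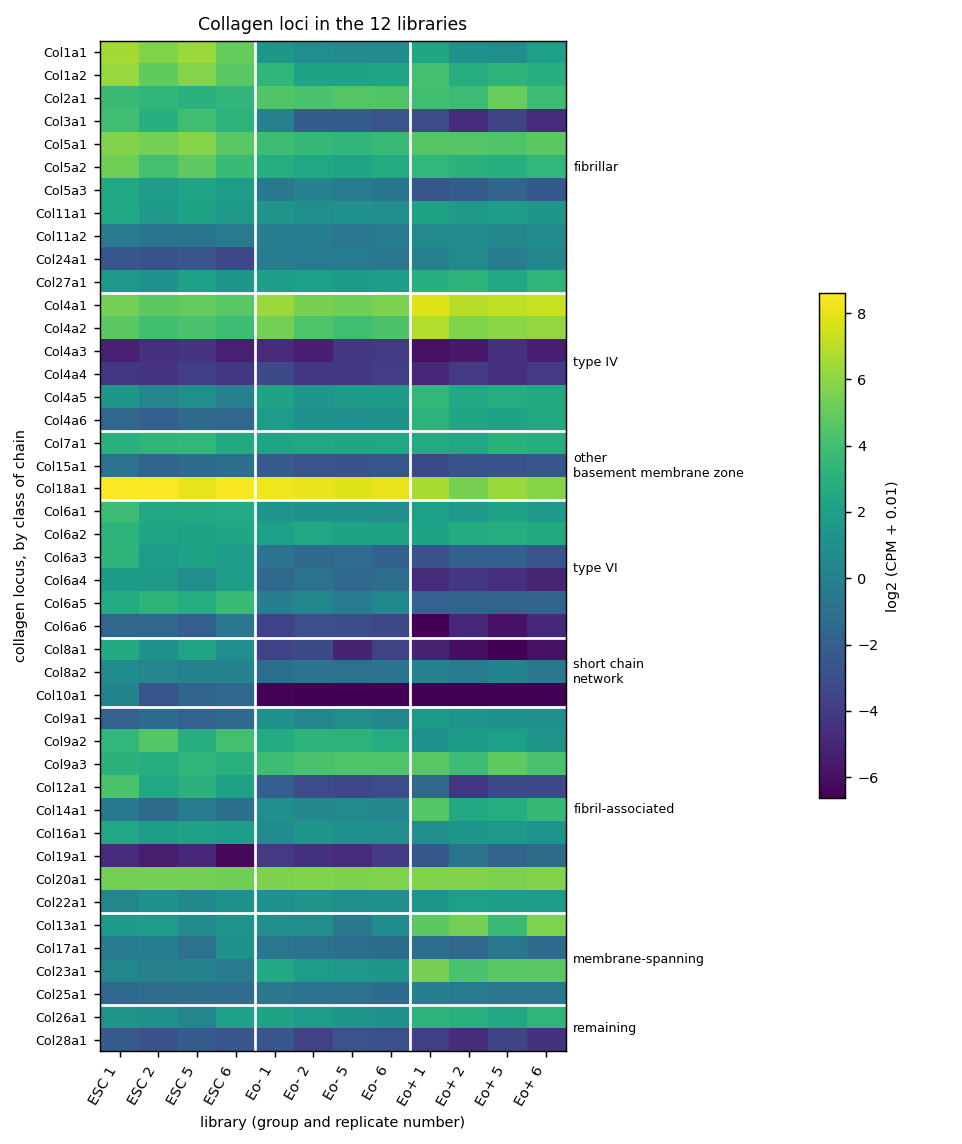
Level of all 44 collagen loci (rows, grouped by class of chain) in the 12 libraries (columns), as log2 of CPM plus 0.01. Col18a1 is bright in ESC and Eo- libraries, Col4a1 and Col4a2 are brightest in Eo+ libraries, and Col8a1, Col10a1 and Col12a1 darken from ESCs to both sorted fractions.

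In Eo+ cells against ESCs, 34 of the 37 chains tested were called (adjusted p up to 0.05 in limma), 16 higher and 18 lower, where 71.9% of all loci tested were called (35.8% higher and 36.1% lower). The merged Col20a1 locus is among the 37 and is counted as higher against ESCs in both fractions. For 29 of the 37 the change was at least 2-fold, which held for 38.1% of all loci, and for 31 the libraries did not overlap, which held for 64.5% of all loci. In Eo- cells against ESCs, 28 of 37 were called, 9 higher and 19 lower, beside 62.2% of all loci (30.9% higher, 31.3% lower), and 25 did not overlap, beside 55.8% of all loci. Both comparisons use the same ESC libraries. In Eo+ against Eo- cells, 23 of 37 were called, 16 higher and 7 lower, beside 47.7% of all loci (23.0% higher, 24.6% lower), and 25 did not overlap, beside 45.9% of all loci. The median log2 fold change of the chains was -0.36, -0.74 and 0.63 in these comparisons, against 0.00, 0.02 and -0.01 over all loci tested.

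**Figure D3:**
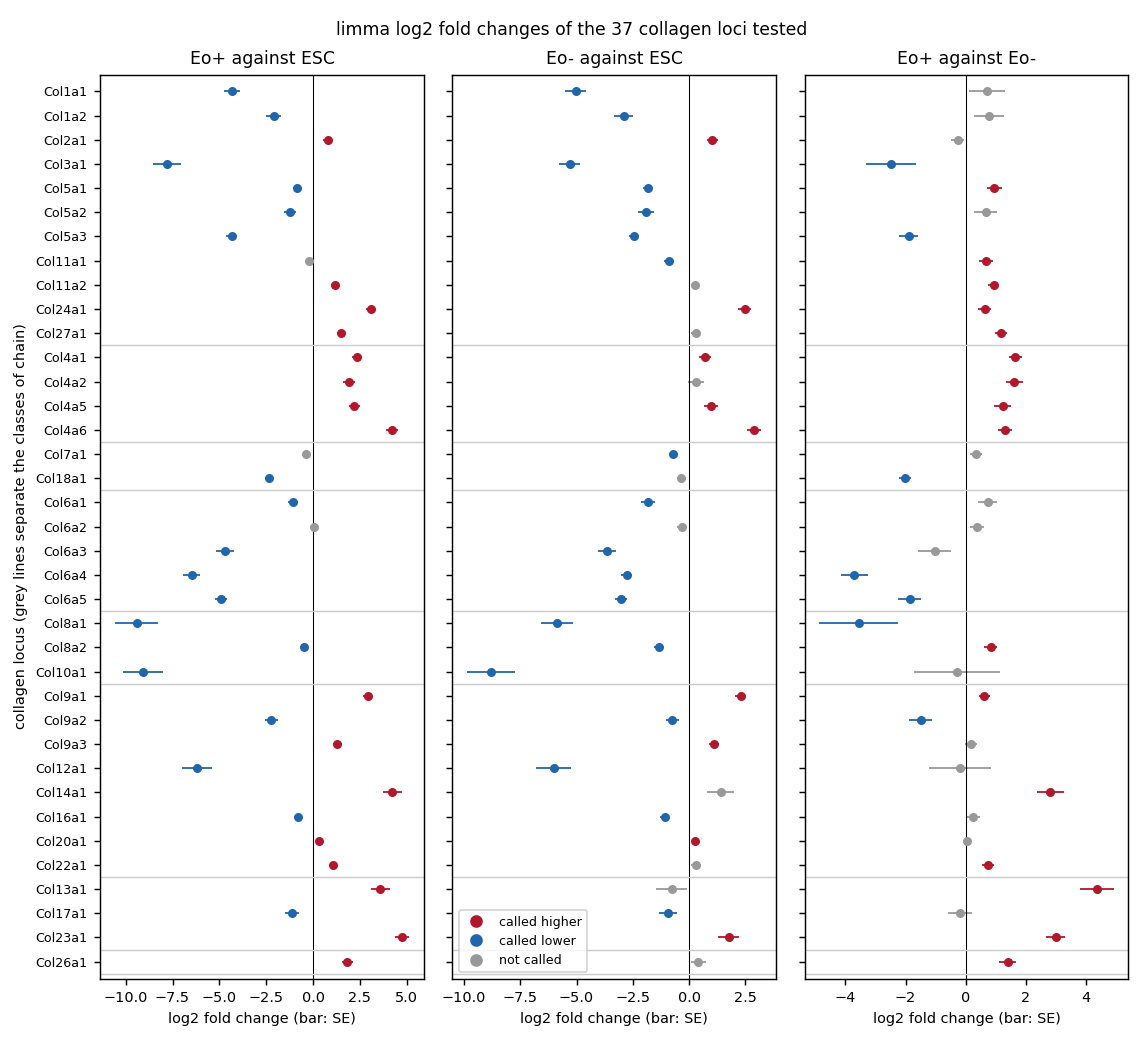
Log2 fold changes from limma (horizontal axis, bars are SE) of the 37 collagen loci tested, in 3 panels, 1 per comparison, with colour for the call. All 4 type IV chains tested lie to the right of 0 in Eo+ cells against both other groups, and the chains with the largest falls in Eo+ cells against ESCs are Col3a1, Col8a1, Col10a1, Col12a1 and Col6a4.

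Type IV chains rose in Eo+ cells: all 4 tested were higher than in ESCs, beside 35.8% of all loci, and higher than in Eo- cells, beside 23.0% of all loci. Col4a1 and Col4a2, which pair in the basement membranes of nearly all tissues, lie head to head on chromosome 8. In RefSeq (GRCm38.p6) their starts are 21 bases apart, and the promoter windows of both genes share 78 bases. The windows, from 250 bases before to 50 after each start, are shown because both chains rose together. Capitals mark GC boxes (GGGCGG) and CCAAT boxes (CCAAT), searched on both strands with TATA boxes (TATAAA) and T-box core sites (GGTGTGA), and no marked motifs overlap.
Col4a1, chr8:11312777-11313076, minus strand: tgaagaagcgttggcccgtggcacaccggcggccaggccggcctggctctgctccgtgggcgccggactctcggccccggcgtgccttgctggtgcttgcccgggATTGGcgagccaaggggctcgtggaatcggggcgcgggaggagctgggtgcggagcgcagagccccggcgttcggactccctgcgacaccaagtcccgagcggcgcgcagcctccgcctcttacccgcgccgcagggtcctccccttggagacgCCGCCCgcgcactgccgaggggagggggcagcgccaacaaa
Col4a2, chr8:11312555-11312854, plus strand: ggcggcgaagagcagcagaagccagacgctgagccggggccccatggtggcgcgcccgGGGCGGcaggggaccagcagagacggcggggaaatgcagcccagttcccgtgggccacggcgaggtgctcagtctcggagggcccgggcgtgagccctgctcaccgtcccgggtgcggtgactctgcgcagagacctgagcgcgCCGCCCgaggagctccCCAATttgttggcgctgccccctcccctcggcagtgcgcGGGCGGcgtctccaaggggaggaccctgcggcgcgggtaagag
The Col4a1 window held 1 GC box and 1 CCAAT box, and that of Col4a2 held 3 GC boxes and 1 CCAAT box. GC boxes occurred in 23 of 38 collagen windows (60.5%, 35 of the 44 genes having an entry) and in 35.7% of all 32851 windows, and CCAAT boxes in 13 of 38 (34.2%) and in 37.4% of all windows. TATA boxes were found in 5 of 38 (13.2%) and in 13.6% of all windows, and T-box core sites in 1 of 38 (2.63%), that of Col11a2, and in 3.98% of all windows.

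Col4a1 (ENSMUSG00000031502, chr8:11198362-11312826) measured 42.9, 26.9, 30.6 and 25.2 CPM in ESCs, 77.8, 44.9, 37 and 47.6 CPM in Eo- cells and 233, 122, 139 and 157 CPM in Eo+ cells. All Eo+ libraries lay above all others, while the Eo- and ESC ranges overlapped. It rose by a log2 fold change of 2.35 ± 0.25 (SE; adjusted p = 1.28e-06) in Eo+ cells against ESCs and of 1.66 ± 0.23 (adjusted p = 6.91e-05) against Eo- cells. The smaller rise in Eo- cells against ESCs, 0.69 ± 0.26 (adjusted p = 0.0326), was no longer called without ESC replicate 2 (adjusted p = 0.0832), 5 (0.0604) or 6 (0.0833), or without Eo- replicate 1 (0.103).

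Col4a2 (ENSMUSG00000031503, chr8:11247078-11449320) measured 27.5, 16.1, 18.6 and 14.7 CPM in ESCs, 42.4, 20.8, 15.4 and 20.2 CPM in Eo- cells and 114, 51.6, 62 and 68.9 CPM in Eo+ cells. As for Col4a1, Eo+ libraries stood alone and replicate 1 was the highest in each group. The log2 fold change was 1.91 ± 0.31 (adjusted p = 7.31e-05) in Eo+ cells against ESCs and 1.62 ± 0.29 (adjusted p = 0.00054) against Eo- cells, and the value of 0.30 ± 0.34 in Eo- cells against ESCs did not pass (adjusted p = 0.46). With the replicate number as a block over all 12 libraries it was 0.34 and was called (adjusted p = 0.0341).

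Col4a5 and Col4a6, the X-linked pair of chains that share a network in some basement membranes, were rarer. Col4a5 averaged 1.68 ± 0.737 CPM in ESCs, 3.18 ± 0.823 CPM in Eo- cells and 7.53 ± 2.45 CPM in Eo+ cells, and Col4a6 averaged 0.327 ± 0.0529, 2.43 ± 0.546 and 6.17 ± 2.16 CPM. Col4a6 had the largest type IV rise, with log2 fold changes of 4.20 ± 0.31 in Eo+ cells (adjusted p = 4.33e-08) and 2.89 ± 0.32 in Eo- cells (adjusted p = 4.79e-06) against ESCs. Col4a5 rose by 2.21 ± 0.30 in Eo+ cells (adjusted p = 1.47e-05) and by 0.98 ± 0.32 in Eo- cells (adjusted p = 0.0168). The latter was not called without ESC replicate 2 (adjusted p = 0.0546) or 6 (0.0565) or Eo- replicate 1 (0.0531). Between the sorted fractions the difference was 1.23 ± 0.27 for Col4a5 and 1.31 ± 0.22 for Col4a6. Col4a3 and Col4a4, chains of the adult glomerular basement membrane, averaged at most 0.0597 CPM in any group.

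Markers of cell types rich in basement membrane were read beside this result, and their part in it was not tested. Of the 8 parietal endoderm markers, 4 were called higher (Sox7, Dab2, Stra6 and Lamb1) and 1 lower (Thbd) in Eo+ cells against ESCs, a share of 62.5% beside the 71.9% of all loci. Against Eo- cells 5 were called higher (Srgn, Dab2, Stra6, Lamb1 and Sparc) and none lower, a share of 62.5% beside the 47.7% of all loci. Their summed level was 68.8 to 99.9 FPKM in ESCs, 56.4 to 78.6 FPKM in Eo- cells and 66.7 to 141 FPKM in Eo+ cells, and without Sparc, which made up most of it, 12.4 to 17.9, 14 to 22.2 and 18.7 to 36.9 FPKM. Of the 8 visceral endoderm markers, 5 were called higher (Ttr, Afp, Apoa1, Apoa4 and Apob) and 2 lower (Amn and Rhox5; 87.5% called) in Eo+ cells against ESCs. Their sums were 69.2 to 76.3, 24.2 to 30.2 and 6.99 to 38 FPKM, and Apoa4 had no more than 3 counts in any ESC library. Against Eo- cells 4 were called higher (Afp, Apoa1, Apoa4 and Apob) and Rhox5 lower (62.5%, beside 47.7% of all loci). Rhox5 alone averaged 71.5, 24.5 and 5.48 FPKM, and the other 7 visceral endoderm markers summed to 1.1 to 2.01 FPKM in ESCs, 1.02 to 6.09 FPKM in Eo- and 1.58 to 33.7 FPKM in Eo+ libraries. Of the 5 endothelial markers tested of 6, Kdr and Cdh5 were called higher and Pecam1 lower (60% called), with sums of 6.56 to 11.6, 4.08 to 30.7 and 11.3 to 49.5 FPKM. Against Eo- cells Kdr was called higher and Pecam1 and Tie1 lower (60%, beside 47.7% of all loci). Without Pecam1, most of the ESC sum, the endothelial sums were 1.58 to 2.64, 2.61 to 25.7 and 11 to 48.1 FPKM. Sparc, Rhox5 and Pecam1, of which the last 2 were called lower against ESCs, were left out after seeing the data. Eo+ replicate 1 had the highest of the 4 Eo+ sums for all 3 lists, with or without these members. Without that library all 4 type IV chains tested were called higher in Eo+ cells. The log2 fold change of Col4a1 against ESCs ranged from 2.17 to 2.52 and that of Col4a2 from 1.69 to 2.11 when each library was left out in turn. Leaving out 1 library does not remove these markers from the Eo+ group, so it says nothing on their part, which was not tested.

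Col18a1, the core protein of a heparan sulphate proteoglycan of basement membranes whose end fragment is endostatin, changed in the opposite direction. It measured 384, 387, 272 and 354 CPM in ESCs, 309, 285, 235 and 270 CPM in Eo- cells and 101, 43.8, 80.4 and 57.4 CPM in Eo+ cells. Eo+ libraries lay below all others, and ESC and Eo- libraries overlapped. Col18a1 (ENSMUSG00000001435, chr10:77052177-77167040) fell by 2.36 ± 0.20 on the log2 scale in Eo+ cells against ESCs (adjusted p = 1.72e-07) and fell by 2.03 ± 0.20 against Eo- cells (adjusted p = 4.75e-06). In Eo- cells against ESCs its log2 fold change of -0.34 ± 0.19 did not pass (adjusted p = 0.129), but was called with only these 2 groups in the fit (adjusted p = 0.0267). Col7a1, the chain of anchoring fibrils, was lower in Eo- cells than in ESCs (log2 fold change -0.70 ± 0.19, adjusted p = 0.00636) and was not called in Eo+ cells against either group.

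Among membrane-spanning chains, Col13a1 and Col23a1 were called higher in Eo+ cells than in both other groups. Their promoter windows are shown for that reason, with the same motifs in capitals.
Col13a1, chr10:61979059-61979358, minus strand: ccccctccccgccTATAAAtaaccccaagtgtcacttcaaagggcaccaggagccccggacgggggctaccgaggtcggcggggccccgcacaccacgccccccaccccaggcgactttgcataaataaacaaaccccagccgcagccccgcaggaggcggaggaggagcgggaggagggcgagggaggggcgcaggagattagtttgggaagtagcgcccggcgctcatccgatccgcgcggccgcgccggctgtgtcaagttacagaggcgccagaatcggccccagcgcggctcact
Col23a1, chr11:51289670-51289969, plus strand: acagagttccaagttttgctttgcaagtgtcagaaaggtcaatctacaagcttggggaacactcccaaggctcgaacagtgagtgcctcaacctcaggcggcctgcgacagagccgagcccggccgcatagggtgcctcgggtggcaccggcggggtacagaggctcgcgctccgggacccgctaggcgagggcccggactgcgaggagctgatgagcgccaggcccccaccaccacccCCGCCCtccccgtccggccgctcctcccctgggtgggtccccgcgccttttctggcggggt
The window of Col13a1 held 1 TATA box and that of Col23a1 held 1 GC box.

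Col13a1 (ENSMUSG00000058806, chr10:61838227-61979291), a transmembrane collagen of cell adhesion sites, measured 3.08, 3.27, 1.47 and 2.34 CPM in ESCs, 1.83, 1.9, 0.675 and 1.68 CPM in Eo- cells and 27, 43.4, 12.8 and 50.3 CPM in Eo+ cells. The lowest Eo+ library, replicate 5, was still above every other library. Its log2 fold change was 3.59 ± 0.52 in Eo+ cells against ESCs (adjusted p = 2.52e-05) and 4.37 ± 0.56 against Eo- cells (adjusted p = 3.59e-05), the largest rise of a chain between the sorted fractions. In Eo- cells against ESCs it was -0.78 ± 0.68 (adjusted p = 0.339), and with the replicate number as a block over all 12 libraries -0.76, called lower (adjusted p = 0.0132). On the opposite strand within Col13a1, a non-annotated locus at chr10:61916117-61934372 averaged 0.895 ± 0.269, 0.647 ± 0.148 and 0.123 ± 0.0482 CPM in ESCs, Eo- and Eo+ cells and was lower in Eo+ cells than in ESCs by -2.89 (log2, adjusted p = 3.35e-06). A second one at chr10:61834548-61874223 was lower by -4.35 (adjusted p = 1.45e-06). In that comparison both loci were called lower and Col13a1 higher. In Eo- cells against ESCs the second locus was called lower (-1.43, adjusted p = 0.00167) and the first one did not pass (-0.45, adjusted p = 0.136).

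Col23a1 (ENSMUSG00000063564, chr11:51289758-51583932), another transmembrane collagen, measured 1.25, 0.986, 1.12 and 0.782 CPM in ESCs, 5.79, 3.29, 2.74 and 2.6 CPM in Eo- cells and 45.1, 18.4, 26.1 and 26 CPM in Eo+ cells. The 3 groups did not overlap. It rose in Eo+ cells against ESCs by 4.74 ± 0.39 (log2, adjusted p = 1.25e-07), in Eo- cells against ESCs by 1.75 ± 0.45 (adjusted p = 0.00411) and was 7.99-fold higher in Eo+ than in Eo- cells (adjusted p = 7.37e-06). Col17a1, the hemidesmosome collagen, was at 1.12 ± 0.774 CPM in ESCs and was called lower in both fractions, with overlapping libraries. Its ESC libraries measured 0.743, 0.946, 0.534 and 2.25 CPM, so replicate 6 lifted the ESC mean.

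**Figure D4:**
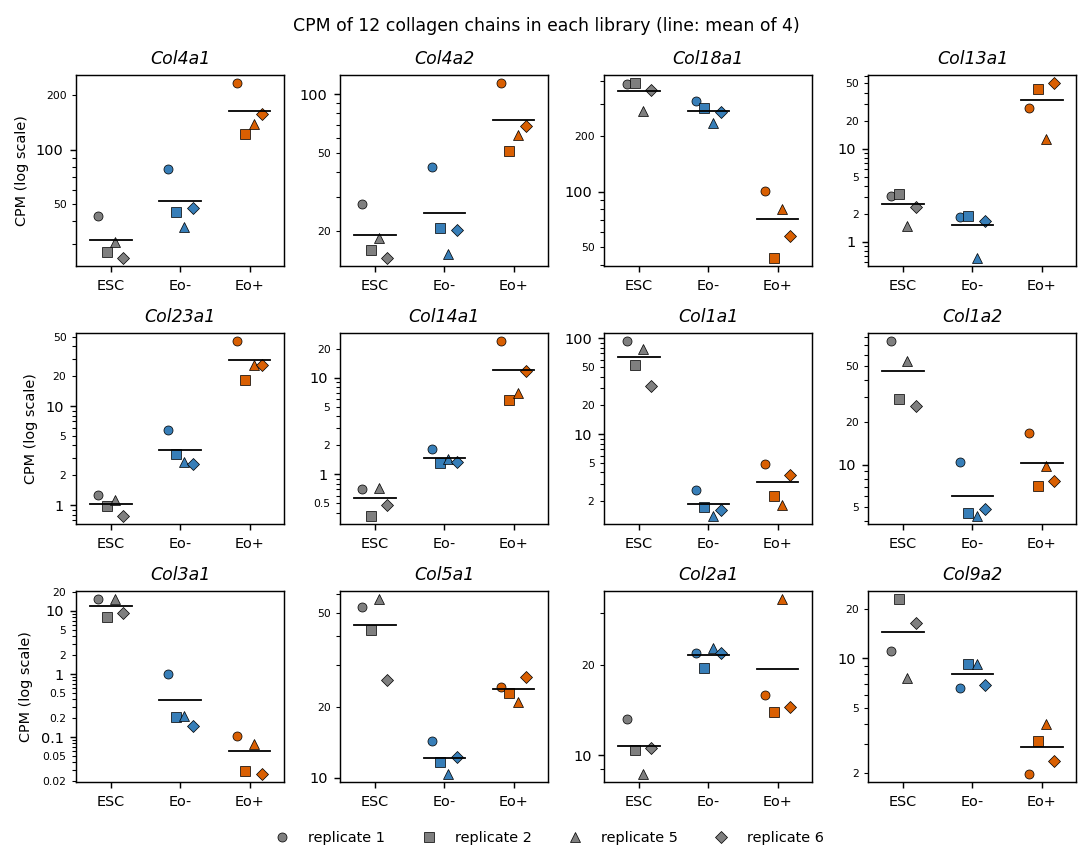
CPM (vertical axes, log scale, a separate range per panel) of 12 collagen chains in each library, with a symbol for the replicate number and a line at the mean of 4. In the upper row and for Col23a1 and Col14a1 the Eo+ libraries stand apart from all others, and for Col1a1 and Col3a1 the ESC libraries stand apart, with replicates 1 and 5 above 2 and 6.

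Fibrillar chains were called in both directions. In Eo+ cells against ESCs 6 of 11 were called lower (Col1a1, Col1a2, Col3a1, Col5a1, Col5a2 and Col5a3) and 4 higher (Col2a1, Col11a2, Col24a1 and Col27a1), with Col11a1 not called, where 36.1% of all loci were lower and 35.8% higher. In Eo- cells against ESCs those 6 and Col11a1 were called lower and Col2a1 and Col24a1 higher, beside 31.3% and 30.9% of all loci. The chains called lower in both are those of types I, III and V, the fibrils of skin, tendon and other fibroblast-made matrix. The windows of Col1a2 and Col3a1 are shown as members of that set.
Col1a2, chr6:4505368-4505667, plus strand: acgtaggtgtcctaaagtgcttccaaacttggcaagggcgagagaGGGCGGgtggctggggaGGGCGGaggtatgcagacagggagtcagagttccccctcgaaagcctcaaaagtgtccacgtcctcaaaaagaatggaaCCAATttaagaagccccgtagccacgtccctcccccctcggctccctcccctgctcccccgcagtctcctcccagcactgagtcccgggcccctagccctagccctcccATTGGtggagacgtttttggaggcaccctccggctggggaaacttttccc
Col3a1, chr1:45311288-45311587, plus strand: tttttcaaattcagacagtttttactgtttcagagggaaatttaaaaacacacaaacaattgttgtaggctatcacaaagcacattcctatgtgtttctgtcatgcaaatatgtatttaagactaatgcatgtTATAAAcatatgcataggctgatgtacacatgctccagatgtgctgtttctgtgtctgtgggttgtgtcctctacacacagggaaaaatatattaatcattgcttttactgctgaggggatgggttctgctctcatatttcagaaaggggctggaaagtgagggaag
Col1a2 held 2 GC boxes and 2 CCAAT boxes in this window and Col3a1 held 1 TATA box.

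Col1a1 (ENSMUSG00000001506, chr11:94936201-94953193), the main chain of type I collagen, measured 93, 52.7, 77.7 and 31.8 CPM in ESCs, 2.65, 1.75, 1.42 and 1.62 CPM in Eo- cells and 4.92, 2.26, 1.84 and 3.8 CPM in Eo+ cells. Its partner Col1a2 (ENSMUSG00000029661, chr6:4504814-4541552) measured 74.7, 29.1, 54.6 and 26.2 CPM in ESCs, 10.4, 4.58, 4.37 and 4.9 CPM in Eo- cells and 16.9, 7.11, 9.74 and 7.74 CPM in Eo+ cells. ESC libraries lay above all sorted libraries for both, and the sorted fractions overlapped. Against ESCs, Col1a1 fell by 4.33 ± 0.44 in Eo+ cells (log2, adjusted p = 9.41e-07) and fell by 5.04 ± 0.47 in Eo- cells (adjusted p = 1.09e-06). Col1a2 fell by 2.11 ± 0.39 (adjusted p = 0.000223) and fell by 2.90 ± 0.42 (adjusted p = 5.31e-05). Between Eo+ and Eo- cells neither passed (0.71 ± 0.59, adjusted p = 0.344, and 0.78 ± 0.49, adjusted p = 0.204). With the replicate number as a block over the 8 sorted libraries, both were called higher in Eo+ cells (adjusted p = 0.00455 for Col1a1 and 0.000374 for Col1a2), Col1a2 also with the block over all 12 (0.00185).

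Col3a1 (ENSMUSG00000026043, chr1:45311538-45349706), the chain of type III fibrils, measured 15.2, 7.94, 15.2 and 9.25 CPM in ESCs, 0.986, 0.207, 0.217 and 0.149 CPM in Eo- cells and 0.106, 0.0297, 0.0787 and 0.0265 CPM in Eo+ cells. The 3 groups did not overlap, and Eo- replicate 1 stood well above the other Eo- libraries. It fell by 7.79 ± 0.73 in Eo+ cells (adjusted p = 4.09e-07) and fell by 5.31 ± 0.48 in Eo- cells (adjusted p = 7.78e-07) on the log2 scale. The difference between the fractions, -2.48 ± 0.83 (adjusted p = 0.0245), was lost without Eo+ replicate 2 (adjusted p = 0.0625) or 6 (0.0638).

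Col5a1 (ENSMUSG00000026837, chr2:27886112-28039541), which with Col5a2 regulates fibril width, measured 52.9, 42.4, 57 and 25.9 CPM in ESCs, 14.3, 11.7, 10.4 and 12.3 CPM in Eo- cells and 24.3, 22.9, 21 and 26.8 CPM in Eo+ cells. Here Eo+ libraries sat between the others and overlapped ESC replicate 6. Against ESCs the log2 fold change was -0.87 ± 0.20 in Eo+ and -1.82 ± 0.23 in Eo- cells (adjusted p = 0.00159 and 1.20e-05), and Eo+ was higher than Eo- by 0.96 ± 0.24 (adjusted p = 0.00481). Col5a2 (ENSMUSG00000026042, chr1:45374287-45503282) measured 39.9, 16.4, 28.4 and 12.6 CPM in ESCs, 6.87, 5.64, 4.72 and 6.72 CPM in Eo- cells and 10.7, 8.8, 7.74 and 10.9 CPM in Eo+ cells. These groups did not overlap, with log2 fold changes against ESCs of -1.25 ± 0.32 in Eo+ cells (adjusted p = 0.00281) and -1.91 ± 0.34 in Eo- cells (adjusted p = 0.000259). Col5a2 in Eo+ against Eo- cells, 0.67 ± 0.38, did not pass (adjusted p = 0.161) but did with the block over the sorted libraries (adjusted p = 0.000269), with only the sorted libraries in the fit (0.00679) and in DESeq2 (0.0364). Col5a3 was at 4.24 ± 1.03, 0.787 ± 0.207 and 0.213 ± 0.0656 CPM in ESCs, Eo- and Eo+ cells, and was lower in Eo+ than in Eo- cells as well (log2 fold change -1.90 ± 0.33, adjusted p = 0.00034).

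Feeder fibroblasts make type I, III and V collagen, and fibroblast markers moved with these chains; their part in the fall was not tested. Of 14 such markers 12 were tested, and 9 were called lower in Eo+ cells than in ESCs (Dcn, Postn, Prrx1, Mfap5, Thy1, Acta2, S100a4, Ccl2 and Il6) and 1 higher (Pdgfrb). In Eo- cells 9 were called lower than in ESCs and Thy1 higher. The share called was 83.3% in both comparisons, beside 71.9% and 62.2% of all loci. Their summed level was 116, 59, 140 and 44.7 FPKM in the ESC libraries, 14.1 to 19.4 FPKM in Eo- and 8.47 to 10.3 FPKM in Eo+ libraries. Without Acta2 and S100a4 the remaining 12 markers summed to 21.4, 10.5, 16 and 14.4 FPKM in the ESC libraries, 12.1 to 18.1 FPKM in Eo- and 7.08 to 9.01 FPKM in Eo+ libraries, so that ESC and Eo- libraries overlapped. Thy1 held 7.97, 12.1 and 4.24 FPKM of these sums on average, and the 11 markers left without it summed to 5.52 to 10.1 FPKM in ESC, 2.03 to 2.94 FPKM in Eo- and 3.07 to 4.98 FPKM in Eo+ libraries, with no overlap between ESCs and either fraction. These members were left out after seeing the data, and Thy1 is the only marker called higher in Eo- cells. The lack of overlap thus follows in part from that choice. In the sums listed by library, ESC replicates 1 and 5 were the high ones and 2 and 6 the low ones. That order was also seen above for Col1a1, Col1a2, Col5a1 and Col5a2. The type IV chains Col4a1 and Col4a2 had it in ESCs as well, so it is not particular to fibrillar chains. The smooth muscle actin gene Acta2 averaged 110 CPM in ESCs, 3.76 CPM in Eo- cells and 3 CPM in Eo+ cells, and S100a4 averaged 11.9, 0.0104 and 0.00744 CPM. No fibroblast marker was at 3 counts or fewer in every library of a group. Sums of Col1a1, Col1a2 and Col3a1 spanned 7.81 to 21.5 FPKM over the ESC libraries, and the other 8 fibrillar chains together 6.99 to 13.9 FPKM in ESCs, 5.71 to 6.49 FPKM in Eo- and 7.13 to 9.32 FPKM in Eo+ libraries. For the sum of those 8 chains, ESC and Eo+ libraries overlapped.

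The other fibrillar chains belong mainly to cartilage and notochord, where type II and type XI chains share fibrils. Col2a1 (ENSMUSG00000022483, chr15:97975602-98004698) measured 13.2, 10.4, 8.67 and 10.6 CPM in ESCs, 21.9, 19.6, 22.9 and 22 CPM in Eo- cells and 15.9, 14, 33.2 and 14.5 CPM in Eo+ cells. Both fractions lay above ESCs, and Eo+ replicate 5 was far above the other Eo+ libraries. The log2 fold change against ESCs was 0.77 ± 0.24 in Eo+ cells (adjusted p = 0.0107) and 1.03 ± 0.23 in Eo- cells (adjusted p = 0.00176). Eo+ against Eo- cells gave -0.26 ± 0.21 (adjusted p = 0.344), and without Eo+ replicate 5 it gave -0.53, called lower (adjusted p = 0.00287). Col24a1 averaged 0.137 ± 0.034, 0.752 ± 0.0782 and 1.19 ± 0.313 CPM in ESCs, Eo- and Eo+ cells, a rise over ESCs of 2.47 ± 0.29 in Eo- and 3.10 ± 0.28 in Eo+ cells (log2). Its difference between the fractions, 0.63 ± 0.21 (adjusted p = 0.0242), was not called without Eo- replicate 2 (adjusted p = 0.0502) or 6 (0.0701) or Eo+ replicate 2 (0.0794) or 6 (0.0623). Col11a1, Col11a2 and Col27a1 were each called higher in Eo+ than in Eo- cells, by 0.68 to 1.18 on the log2 scale. Of the notochord and cartilage regulators, 7 of 10 were tested, and Sox9, Hapln1, Shh, Chrd and Foxa2 were called higher and Acan lower than in ESCs in both fractions (85.7% called, beside 71.9% of all loci in Eo+ and 62.2% in Eo- cells), with sums of 18 to 19.2 FPKM in ESCs, 26.9 to 32.1 FPKM in Eo- and 57.8 to 85 FPKM in Eo+ libraries. The Noto locus had been merged with Smyd5 and held most of the ESC sum; without it the sums were 3.2 to 3.53, 12.7 to 18.9 and 41.9 to 70.7 FPKM. The highest of these sums, with or without Noto, was that of Eo+ replicate 5, and its part in the Col2a1 value was not tested.

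Type VI and short chain network chains were low after differentiation. Of the 5 type VI chains tested, Col6a1, Col6a3, Col6a4 and Col6a5 were called lower in both fractions than in ESCs (beside 36.1% of all loci in Eo+ and 31.3% in Eo- cells), and Col6a2 in neither (log2 fold changes 0.05 ± 0.21 and -0.33 ± 0.22). Col6a3, the long chain of the filament, averaged 5.24 ± 3.06 CPM in ESCs, 0.395 ± 0.123 CPM in Eo- cells and 0.193 ± 0.0603 CPM in Eo+ cells. Col6a4 and Col6a5, neighbours on chromosome 9, averaged 2.91 ± 0.827 and 8.89 ± 2.92 CPM in ESCs, 0.41 ± 0.0641 and 1.06 ± 0.297 CPM in Eo- cells and 0.0315 ± 0.00919 and 0.284 ± 0.0183 CPM in Eo+ cells. Both were lower in Eo+ than in Eo- cells (log2 fold changes -3.70 ± 0.46, adjusted p = 3.11e-05, and -1.86 ± 0.38, adjusted p = 0.00114). In the ESC libraries Col6a5 measured 6.33, 9.68, 6.88 and 12.7 CPM and Col6a3 9.75, 3.24, 4.57 and 3.41 CPM. Replicates 2 and 6, the low libraries for fibroblast markers, were thus the high ones for Col6a5 and the low ones for Col6a3. Col6a3 in Eo+ against Eo- cells (-1.03 ± 0.56, adjusted p = 0.144) was called without ESC replicate 1 (adjusted p = 0.0223) with the block over the sorted libraries (adjusted p = 0.016) or over all 12 (0.0225), with only the sorted libraries in the fit (0.0229), in edgeR (0.0352) and in DESeq2 (0.012).

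Col8a1, a chain of the sheet-like network under vascular and corneal endothelium, averaged 3.7 ± 2.04 CPM in ESCs and 0.0656 ± 0.0333 CPM in Eo- cells. In Eo+ cells it measured 0.0178, 0.00517, 0 and 0.00623 CPM. It was called lower in both fractions than in ESCs, while its difference between the fractions (adjusted p = 0.0381) was lost without Eo- replicate 1 (0.0601), 2 (0.0731) or 6 (0.0619) or Eo+ replicate 2 (0.0628), 5 (0.109) or 6 (0.0607). Col8a2 was also called lower in both fractions, by -0.51 ± 0.21 in Eo+ and -1.34 ± 0.22 in Eo- cells (log2). Col10a1, the collagen of hypertrophic cartilage, averaged 0.489 ± 0.452 CPM in ESCs, where replicate 1 held 1.15 CPM. It had 0 counts in all Eo+ libraries and at most 1 count in an Eo- library. Against a floor of 3 counts per library it was at least 105-fold lower in Eo+ cells and at least 121-fold lower in Eo- cells than in ESCs. Without ESC replicate 1 the ESC mean was 0.267 CPM and the bounds were 57.1-fold and 66-fold.

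Fibril-associated chains, which sit on the surface of fibrils, went both ways. Col14a1 (ENSMUSG00000022371, chr15:55307750-55520803) measured 0.713, 0.374, 0.726 and 0.485 CPM in ESCs, 1.82, 1.31, 1.46 and 1.34 CPM in Eo- cells and 23.9, 5.85, 6.96 and 11.7 CPM in Eo+ cells. The 3 groups did not overlap, and Eo+ replicate 1 was the highest. It rose in Eo+ cells by 4.22 ± 0.51 against ESCs (log2, adjusted p = 5.42e-06) and by 2.82 ± 0.44 against Eo- cells (adjusted p = 0.000161). The value of 1.40 ± 0.59 in Eo- cells against ESCs missed the threshold (adjusted p = 0.0525) and passed it without Eo+ replicate 1 (0.00209), 2 (0.0322) or 5 (0.0477). It also passed with only ESC and Eo- libraries in the fit (0.000346), under a block on the replicate number (0.00258), with library totals (0.0422), without the FPKM filter (0.0452), in edgeR (0.00736) and in DESeq2 (0.000698). Col12a1, a chain of dense connective tissue, measured 19.8, 5.36, 8.96 and 4.09 CPM in ESCs and at most 0.338 CPM in any sorted library. It fell by 6.21 ± 0.80 in Eo+ and fell by 6.02 ± 0.77 in Eo- cells (log2; adjusted p = 9.47e-06 and 1.52e-05).

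The 3 chains of type IX, which coat cartilage fibrils, did not move together. Col9a2 (ENSMUSG00000028626, chr4:121039385-121055333) measured 11, 22.7, 7.56 and 16.4 CPM in ESCs, 6.61, 9.17, 9.24 and 6.89 CPM in Eo- cells and 1.99, 3.16, 3.99 and 2.39 CPM in Eo+ cells. Col9a3 (ENSMUSG00000027570, chr2:180597790-180640401) measured 8.69, 7.3, 10.5 and 8.23 CPM in ESCs, 14.5, 18.3, 21 and 20.9 CPM in Eo- cells and 25.2, 14.1, 28.9 and 19 CPM in Eo+ cells. Eo+ libraries were thus the lowest for Col9a2 and, with Eo-, above ESCs for Col9a3. Col9a2 fell by 2.24 ± 0.35 and Col9a3 rose by 1.29 ± 0.23 in Eo+ cells against ESCs (adjusted p = 5.45e-05 and 0.000156). Col9a1 averaged 0.324 ± 0.0605, 1.59 ± 0.389 and 2.4 ± 0.367 CPM in ESCs, Eo- and Eo+ cells, a rise over ESCs of 2.29 ± 0.24 and 2.91 ± 0.24 (log2). Its difference between the fractions (0.62 ± 0.19, adjusted p = 0.0162) was not called without Eo- replicate 2 (0.0575) or 6 (0.0576) or Eo+ replicate 1 (0.051). In Eo- cells against ESCs, Col9a2 gave -0.74 ± 0.29 (adjusted p = 0.0401) and Col9a3 1.10 ± 0.23 (adjusted p = 0.000879), the former being lost without ESC replicate 2 (0.117) or 6 (0.0919) or Eo- replicate 1 (0.101), 2 (0.0515) or 6 (0.0946), with library totals (0.056) and without the FPKM filter (0.0652).

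The merged locus that holds Col20a1 with Arfgap1 measured 41.8, 42.9, 42 and 38.6 CPM in ESCs, 47.4, 53, 47.9 and 51.6 CPM in Eo- cells and 51.4, 52.1, 48.2 and 52.3 CPM in Eo+ cells, a rise of 0.30 ± 0.06 in Eo+ and 0.27 ± 0.06 in Eo- cells (log2) that cannot be given to Col20a1. Col16a1 was called lower in both fractions than in ESCs, and Col22a1 and Col26a1 were called higher in Eo+ cells than in both other groups, at group means of 3.44 ± 0.6 and 8.25 ± 2.02 CPM in Eo+ cells.

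Ratios between chains that share a molecule, fibril or network were compared per length. Of 7 pairs, Col3a1 to Col1a1 was left out because Col3a1 had few counts in the sorted libraries, and 18 exact two-sided permutation tests remained, in which 0.0286 is the smallest p that 4 against 4 libraries allow. The ratio of Col1a1 to Col1a2 was 2.56 ± 0.491 in ESCs, 0.581 ± 0.0945 in Eo- cells and 0.58 ± 0.226 in Eo+ cells. ESC libraries (2.24, 3.26, 2.56 and 2.19) did not overlap those of the fractions (exact permutation p = 0.0286, adjusted p = 0.0429 over the 18 tests, in both comparisons), and the fractions did not pass against each other (exact permutation p = 0.8). In secreted type I collagen the alpha 1 chain usually outnumbers alpha 2, but that concerns protein chains and these ratios concern RNA. Their level also depends on the summed exon length, 6749 bases for Col1a1 and 12147 for Col1a2. Col4a5 to Col4a6 went from 4.9 ± 1.81 in ESCs to 1.26 ± 0.13 in Eo- and 1.19 ± 0.216 in Eo+ cells, and Col6a1 to Col6a2 from 2.86 ± 0.456 to 1.03 ± 0.231 and 1.34 ± 0.436, each without overlap between ESCs and either fraction.

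Col4a1 to Col4a2 kept the narrowest range of the 6 pairs, at 1.68 ± 0.0665 in ESCs, 2.23 ± 0.263 in Eo- cells and 2.28 ± 0.136 in Eo+ cells, although the levels of both chains moved several-fold. The shift from ESCs was small (log2 differences of 0.40 in Eo- and 0.43 in Eo+ cells) but without overlap (exact permutation p = 0.0286 and adjusted p = 0.0429 for both). Between the fractions the log2 difference was 0.03 (exact permutation p = 0.743). Col2a1 to Col11a1 was 4.08 ± 1.09 in ESCs, 15.1 ± 1.83 in Eo- cells and 8.31 ± 3.29 in Eo+ cells, and all 3 comparisons passed (adjusted p = 0.0429 by exact permutation). Col5a1 to Col5a2 passed only in Eo+ against Eo- cells, at 2.78 ± 0.212 against 2.27 ± 0.176 (exact permutation p = 0.0286, adjusted p = 0.0429), and was 2.21 ± 0.575 in ESCs. These tests are unpaired. Paired by replicate number, Eo+ against Eo- cells gave p = 0.125 for this ratio and for Col2a1 to Col11a1 (paired exact test). That is the smallest p such a test allows, so it cannot decide. With summed exons fixed per locus, a ratio's level depends on the length used but its difference between groups does not.

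**Figure D5:**
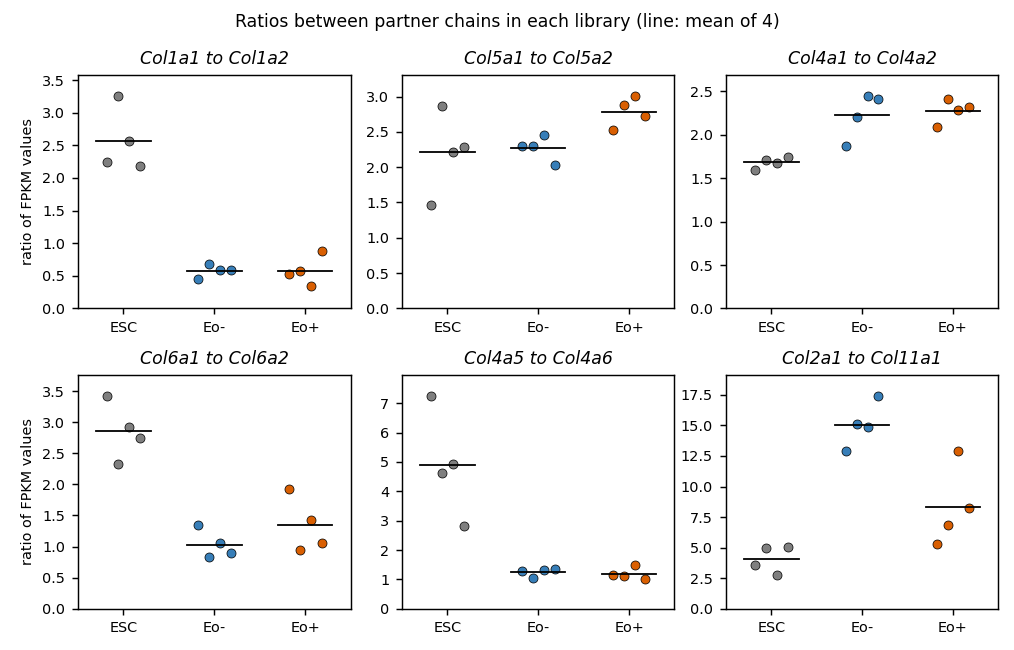
Ratio of FPKM values (vertical axes, linear, from 0) of 6 pairs of partner chains in each library, with a line at the mean of 4 libraries per group. Col1a1 to Col1a2 lies at 2.19 to 3.26 in ESCs and at 0.339 to 0.883 in the sorted libraries, and Col4a1 to Col4a2 stays between 1.59 and 2.45 throughout.

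Genes that modify, fold, process, bind or degrade collagen were read from lists of 57 genes, 52 of them tested. In Eo+ cells against ESCs 19 passed as higher and 19 as lower, in Eo- cells against ESCs 7 as higher and 26 as lower, and in Eo+ against Eo- cells 25 higher and 5 lower (medians of 0.06, -0.41 and 0.26 on the log2 scale). These were 73.1%, 63.5% and 57.7% of the genes tested, beside 71.9%, 62.2% and 47.7% of all loci. Of the 13 hydroxylation genes tested, 6 were called above ESCs and 4 below in Eo+ cells (76.9%; this share and those of the lists that follow stand beside 71.9% of all loci). The largest change was in Leprel1, a prolyl 3-hydroxylase that acts on basement membrane collagens, at 2.12 ± 0.58, 5.43 ± 0.543 and 30.6 ± 7.15 CPM in the 3 groups (log2 fold change 3.85 ± 0.24 in Eo+ cells against ESCs, adjusted p = 1.13e-08). The prolyl 4-hydroxylase subunit P4ha1 rose by 1.16 ± 0.24 in Eo+ against Eo- cells, P4ha3 fell in both fractions, P4hb differed by 0.05 ± 0.06 in Eo+ cells against ESCs without passing, and the lysyl hydroxylase Plod2 fell by 0.45 ± 0.11.

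Among 8 folding and export genes tested, Eo+ cells had 5 above and 1 below ESCs (75%). Serpinh1, the collagen chaperone of the endoplasmic reticulum, stood at 93.4 ± 16.8, 130 ± 19.6 and 364 ± 59.9 CPM in ESCs, Eo- and Eo+ cells, a log2 fold change of 1.96 ± 0.15 (adjusted p = 6.32e-08) in Eo+ cells against ESCs. The prolyl isomerase Fkbp14 rose by 1.79 ± 0.12, and the collagen-binding secreted protein Sparc, at 226 ± 43.2 CPM in ESCs and 256 ± 82.3 CPM in Eo+ cells, did not pass there (0.14 ± 0.20).

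Genes for propeptide removal and crosslinking, of which 12 were tested, had 3 above and 5 below ESCs in Eo+ cells (66.7%), and 1 above and 8 below ESCs in Eo- cells (75%, beside 62.2% of all loci). Lox, the lysyl oxidase that crosslinks fibrils, averaged 26.8 ± 16.9, 0.178 ± 0.0671 and 0.161 ± 0.0635 CPM in ESCs, Eo- and Eo+ cells. The locus of the procollagen C-proteinase enhancer Pcolce, merged with Fbxo24, went from 86.6 ± 12 CPM to 9.35 ± 1.59 and 6.99 ± 1.23 CPM. The procollagen C-proteinase Bmp1 rose by 0.64 ± 0.22 in Eo+ cells (adjusted p = 0.016). Among 6 receptors tested, 1 was called higher (the integrin chain Itgb1, by 0.27 ± 0.11) and 2 lower in Eo+ cells against ESCs (50%), and 1 higher (Ddr1, by 0.64 ± 0.16) and 3 lower, Itgb1 among them, in Eo- cells against ESCs (66.7%, beside 62.2% of all loci). The fibrillar collagen receptors Ddr2 (5.18 ± 2.04, 0.196 ± 0.0453 and 0.0823 ± 0.0443 CPM) and Itga11 (3.24 ± 2.13, 0.0681 ± 0.0123 and 0.0975 ± 0.0118 CPM) were called lower in both fractions. Of 5 proteinases tested, 3 were called higher in Eo+ cells against ESCs, among them the membrane-type collagenase Mmp14 (49.7 ± 9.03 to 154 ± 15.7 CPM) and the gelatinase Mmp9 (2.66 ± 0.595 to 9.32 ± 4.52 CPM). The other 2 were called lower at low levels: the collagenase Mmp13 averaged 0.332 CPM in ESCs and 0.00902 CPM in Eo+ cells (adjusted p = 0.000174), and the cathepsin Ctsk 0.737 and 0.166 CPM (adjusted p = 0.000245). Among 8 basement membrane partners of type IV collagen, 1 was called higher (Lamb1) and 5 lower in Eo+ cells against ESCs (75%). The linker nidogen, Nid1, averaged 81.9 ± 18.7, 14.1 ± 6.48 and 22.7 ± 9.45 CPM in ESCs, Eo- and Eo+ cells and fell in both fractions, and the laminin chain Lama1, at 32.4 ± 7.9, 7.99 ± 1.89 and 25.4 ± 6.94 CPM, fell in Eo- cells and did not pass in Eo+ cells (-0.37 ± 0.21, adjusted p = 0.135). In Eo+ cells against ESCs the 4 type IV chains tested were called higher, while the 5 partners Lama5, Lamc1, Nid1, Nid2 and Hspg2 were called lower. Against Eo- cells Lama1 and Lamb1 were called higher, as were the 4 type IV chains. There Lama5, Lamc1 and Nid2 were called lower (62.5% of the partners called, beside 47.7% of all loci).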

How the data were processed

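Per the labels and the methods of the study, stranded paired reads were mapped to mm10 with STAR, assembled with Cufflinks 2.2.1 on the Ensembl annotation, and counted per merged locus with HTSeq 0.6.1 (versions as in the submitters' processing notes). These are the raw counts the authors deposited, as whole numbers, and the authors' annotation gives exon positions. Tally lines that name no gene (25.1% to 29% of the table, with not unique alignments at 22.4% to 26.2%) stayed out of library sizes. A deposited normalized table was not used, and 0 columns of other samples were present.

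A collagen locus held a transcript of class code = or j with a matching gene name. CPM used TMM-scaled libraries (edgeR 4.0.16), and FPKM used summed exon length. Loci over 0.1 FPKM in 1 group that were protein-coding, annotated lncRNA or multi-exon non-annotated loci were fitted with voom and limma 3.58.1 in R 4.3.3 over all 12 libraries, two-sided, with Benjamini-Hochberg adjustment over 17922 loci. Every adjusted p given for a gene is from limma unless another test is named. The procedure was tested on simulated data. Alternatives included library totals, DESeq2 1.42.0, edgeR, filters, blocks and leaving out libraries. Chain ratios used exact permutation.

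Chains at 10 CPM or more in a group, or at 0.5 CPM or more and called with a log2 change of at least 2, are described singly, as are the 2 most changed called genes per pathway list, among those at 1 CPM or more in the higher group, and 7 fixed names. The members and lists were chosen with earlier results of these data known. The study names 4 differentiation sets as the origin of its 12 samples, 4 in each of the 3 groups. Same-numbered Eo- and Eo+ libraries deviated together (r of 0.495, 0.224, 0.229 and 0.196), so the numbers pair these fractions. With ESCs r lay between -0.0969 and 0.214, and whether a number marks a set is not given in the sources used here, so blocked values over all 12 libraries are given where they change a call. P-values measure the spread between samples of 1 line, and floors cover counting error only, as reads carried no molecular identifiers.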

Additional observations from a re-analysis of the deposited data

Results flagged for a closer look

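In 5 of 75 groups of 4 libraries, 1 library lay far from the other 3 by Dixon's criterion, a rate near the 1 in 20 that chance gives. Col1a2 was 10.4 CPM in Eo- replicate 1, where the other Eo- libraries had 4.37 to 4.9 CPM. Col3a1 was 0.986 CPM and Col4a6 3.24 CPM in the same library, against 0.149 to 0.217 and 2.11 to 2.21 CPM. Col2a1 was 33.2 CPM in Eo+ replicate 5, against 14 to 15.9 CPM, and Col12a1 was 0.338 CPM in Eo+ replicate 1, against 0.0453 to 0.095 CPM.

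Mmp9, the gelatinase, was called higher in Eo+ cells than in ESCs (log2 fold change 1.70 ± 0.36, adjusted p = 0.000829) and lower in Eo- cells than in ESCs (-1.18 ± 0.45, adjusted p = 0.0353), and the test of the difference, Eo+ against Eo-, gave 2.88 ± 0.41 (adjusted p = 7.71e-05).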

How the results depend on the processing

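Over all alternatives, no described chain reversed a call. Counts of calls stayed within 1.5 times of the stated ones in 135 of 140 recomputations that kept all libraries and in 177 of 180 that left 1 out. When a 2-fold change was also required, pathway genes called fell to 22 (Eo+ against ESCs), 19 (Eo- against ESCs) and 11 (Eo+ against Eo-), type IV chains in Eo- cells against ESCs to 1, and fibrillar chains in Eo+ against Eo- cells to 3, since the rule itself removes smaller changes. Leaving out 1 library gave 1 to 3 type IV chains in Eo- cells against ESCs, with 1 left without ESC replicate 2 or 6 or Eo- replicate 1, 32 to 35 chains in all in Eo+ cells against ESCs, 24 to 29 in Eo- cells against ESCs and 19 to 25 in Eo+ against Eo- cells. With the replicate block, 34, 31 and 26 chains were called in these comparisons, and 29 in Eo+ against Eo- cells with the block over the 8 sorted libraries only, an alternative chosen after seeing the data. That block added the calls given beside Col1a1, Col1a2, Col5a2 and Col6a3 and changed no other call of a described chain in that comparison. Over all 12 libraries the block added the calls of Col4a2, Col13a1 and Col14a1 in Eo- cells against ESCs. For the ratios a paired exact test cannot go below 0.125. edgeR called 33, 29 and 25 chains and DESeq2 34, 29 and 26. Shares over all loci are given for the stated fit only and not under these alternatives. The counts here therefore show how calls depend on the processing and are no result about collagen. Depth limits Col10a1 in both fractions (at most 1 count) and Col8a1 in Eo+ cells (0 to 14 counts).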
